A study of Mus musculus with 112 samples.

Results

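Solute carriers are membrane proteins that move nutrients, ions, vitamins and metabolites across the plasma membrane or the membranes of organelles. The genes described here are solute carriers detected in mouse small intestinal crypts, with some families and single genes left out. A gene was included when its symbol carried a solute carrier family number, the letter a and a member number, its mean level reached 5 CPM (counts scaled to the library's total) in at least 1 of the 3 sorted cell types, and it was outside the SLC28, SLC29, SLC30 and SLC39 families and not Slc12a2, Slc40a1, Slc11a2, Slc5a1, Slc6a19 or Slc14a1. Carriers with another letter in that place and the Slco genes were therefore left out, so a class below need not hold its whole family. The rule kept 154 of the 309 genes that met its terms other than level, among 32285 genes listed. The members were chosen by their measured level in these samples, so differences in level between cell types are a description. For these, called only marks members whose adjusted p fell below 0.05 in the fit of all genes (edgeR, 13287 genes tested), and no p is given. Just inside the limit were Slc31a2 at 5.64 CPM, Slc25a40 at 5.50 CPM and Slc24a5 at 5.20 CPM in the cell type where each was highest. Just outside were Slc25a47 at 4.85 CPM, Slc13a2 at 4.38 CPM and Slc2a9 at 4.30 CPM. Of the 154 members, 111 reached the limit in all 3 cell types, 28 in 2 and 15 in 1.

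The cells came from crypts of the proximal small intestine of C57BL/6 mice that carried Lgr5-eGFP-IRES-CreERT2, an allele that marks intestinal stem cells (ISCs) with green fluorescence. All groups carried the allele, and its mosaic expression limits the ISC and progenitor gates to crypts where the reporter was on. Progenitors were sorted as Epcam-positive, CD24-low cells of medium to low GFP, Paneth cells as CD24-high, side-scatter-high, GFP-negative cells, and ISCs as cells of high GFP. Aged mice of 23 to 27 months were compared with young mice of 2 to 3 months, both sexes in each. Progenitors came from 10 aged and 10 young mice, Paneth cells from 12 aged and 12 young mice, and ISCs from 12 aged and 11 young mice. RNA was profiled with SC3-seq, which reads the 3′ ends of transcripts. Bulk sorted samples cannot tell fewer cells of a type from less RNA per cell.

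Carriers of the gut epithelium work in series: an apical carrier takes up a substrate, often driven by the sodium or proton gradient, and a basolateral carrier releases it. The SLC25 family does the same for the inner mitochondrial membrane, exchanging ATP for ADP, importing phosphate and moving citrate, malate or amino acids. Crypt stem cells and progenitors divide and depend on amino acid and vitamin uptake, mature enterocytes at the villus carry most of the absorptive carriers, and Paneth cells secrete antimicrobial proteins. By substrate, the members were 35 mitochondrial carriers, 28 carriers of amino acids and peptides, 25 of inorganic ions and acid or base, 13 of vitamins and choline, 9 each of monocarboxylates and related acids, of nucleotide sugars, of organic cations or anions and of sugars, 6 of neurotransmitters and osmolytes, 4 of fatty acids and 3 of copper or haem. A further 4, Slc9a3r1, Slc9a3r2, Slc4a1ap and Slc7a6os, are named after a carrier and are not carriers themselves.

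The start regions of 3 members with large differences between progenitors and ISCs are shown. They are RefSeq sequences of build GRCm38.p6, 250 bases before to 50 after the RefSeq start, in the direction of transcription. Slc9a3 lies at chr13:74121163-74121462 on the plus strand, with 6 bases in the annotated gene, and Slc6a20a at chr9:123678783-123679082 on the minus strand, with 103 bases in its first exon. The Slc1a2 window, chr2:102706188-102706487 on the plus strand, lies wholly inside the longer gene of the annotation and holds 46 exonic bases. Capitals mark the TCF/LEF motif, CTTTGAT on the minus strand, from position 44 counted from 1 at the 5′ end.
Slc9a3: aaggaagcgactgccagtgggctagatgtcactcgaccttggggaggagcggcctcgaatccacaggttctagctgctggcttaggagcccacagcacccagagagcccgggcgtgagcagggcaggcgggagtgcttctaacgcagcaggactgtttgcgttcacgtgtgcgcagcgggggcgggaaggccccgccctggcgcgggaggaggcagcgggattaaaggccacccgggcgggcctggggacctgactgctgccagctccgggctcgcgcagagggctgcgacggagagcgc
Slc6a20a: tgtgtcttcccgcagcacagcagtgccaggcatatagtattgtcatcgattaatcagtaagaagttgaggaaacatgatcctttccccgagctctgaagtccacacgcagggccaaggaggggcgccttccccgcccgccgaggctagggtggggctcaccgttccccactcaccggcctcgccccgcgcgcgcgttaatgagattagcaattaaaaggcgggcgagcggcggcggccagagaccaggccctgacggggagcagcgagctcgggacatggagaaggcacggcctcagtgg
Slc1a2: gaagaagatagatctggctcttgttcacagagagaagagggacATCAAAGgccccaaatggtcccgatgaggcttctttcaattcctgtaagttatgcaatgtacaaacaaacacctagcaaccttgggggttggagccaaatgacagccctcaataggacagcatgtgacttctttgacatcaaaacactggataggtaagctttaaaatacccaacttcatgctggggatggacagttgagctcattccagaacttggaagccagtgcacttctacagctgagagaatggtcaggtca

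Start regions were found for 112 of the 154 members. On either strand, the TCF/LEF motif CTTTGAT occurred in 10 of them (8.93%), against 4.29% of 27025 start regions of all genes. It was in 3 of 11 members lower in young progenitors than in ISCs (Slc1a2, Slc25a28 and Slc27a1) and in 2 of 36 that were higher (Slc35a3 and Slc44a4). The HNF4 motif CAAAGTCCA occurred in 1 member, Slc3a1 (0.893%, against 0.555% of all), and the CDX motif TTTATNG in 8 (7.14%, against 12.5% of all). CTTTGAT read on the minus strand and CAAAGTCCA share the letters CAAAG, and the matches describe only the letters of these windows.

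ISC and Paneth samples were highest in the markers of their own label, while no marker list of progenitors was used. The summed ISC markers (Lgr5, Olfm4, Ascl2, Smoc2, Gkn3, Axin2) were 642 to 1716 normalised CPM in progenitors, 1502 to 5220 in Paneth cells and 6461 to 12164 in ISCs, and the summed Paneth markers were 98281 to 289586 in Paneth cells and at most 2117 in the other 2 types. Summed goblet markers were 8681 to 34303 in progenitors. Depth per animal was 2.48 to 7.57 M counts for progenitors, 2.82 to 11.8 M for Paneth cells and 2.18 to 5.59 M for ISCs. Mitochondrially encoded transcripts took a median of 55.0% of the counts in aged and 61.3% in young Paneth cells. Among members above 20 normalised CPM the median coefficient of variation between young animals was 21.0% in progenitors, 38.6% in Paneth cells and 23.4% in ISCs, against a counting error of 5.86%, 8.33% and 6.21%. Exons of 50 of the 154 members overlap another gene, 45 of them a gene on the other strand, among them Slc6a20a with Ccr9, Slc16a7 with Gm47862 and Slc1a1 with 4430402I18Rik. The sources used here do not say whether counting used strand, so reads of such pairs may be shared.

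In Slc25a5 the ISC samples stood apart by which animals they came from. Slc25a5, on the X chromosome at 36795651 to 36798807 (GRCm38), encodes an ADP/ATP carrier of the inner mitochondrial membrane. In ISCs it was 968 to 1615 normalised CPM in the 10 animals that also gave a progenitor sample, and 386 to 665 in the 13 animals that did not. The ranges did not overlap, and the log2 difference was 1.37 ± 0.07 (SE). Both sets held aged and young mice of both sexes: 5 aged and 5 young with a progenitor sample, 7 aged and 6 young without. They were not matched in months: the 3 aged males with a progenitor sample were 26 or 27 months old, the 4 without 24. ISC depth was mostly lower in the set with a progenitor sample, at 2.18 to 5.55 M counts, against 3.43 to 5.59 M without. The part of months and depth in the split was not tested. In Paneth cells Slc25a5 was 755 to 1518 in the 14 animals with a progenitor sample and 275 to 1429 in the 10 without. The 1429 belongs to an animal name that differs by an added suffix from one with a progenitor sample and may be the same animal; the other 9 ran from 275 to 951. Of 15 animals sampled as both ISCs and Paneth cells, 8 lay above the widest gap in the ordered values in both cell types and 7 below it in both. A pseudogene, Slc25a5-ps, is annotated and its reads may be shared. The split was noticed in these data, so Slc25a5 is given no p. The count columns of the 13 ISC samples without a progenitor sample all carry another name ending than those of the other 10; the labels do not say what the ending means, so it and the split cannot be told apart. The cause of the split was not tested.

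**Figure D1:**
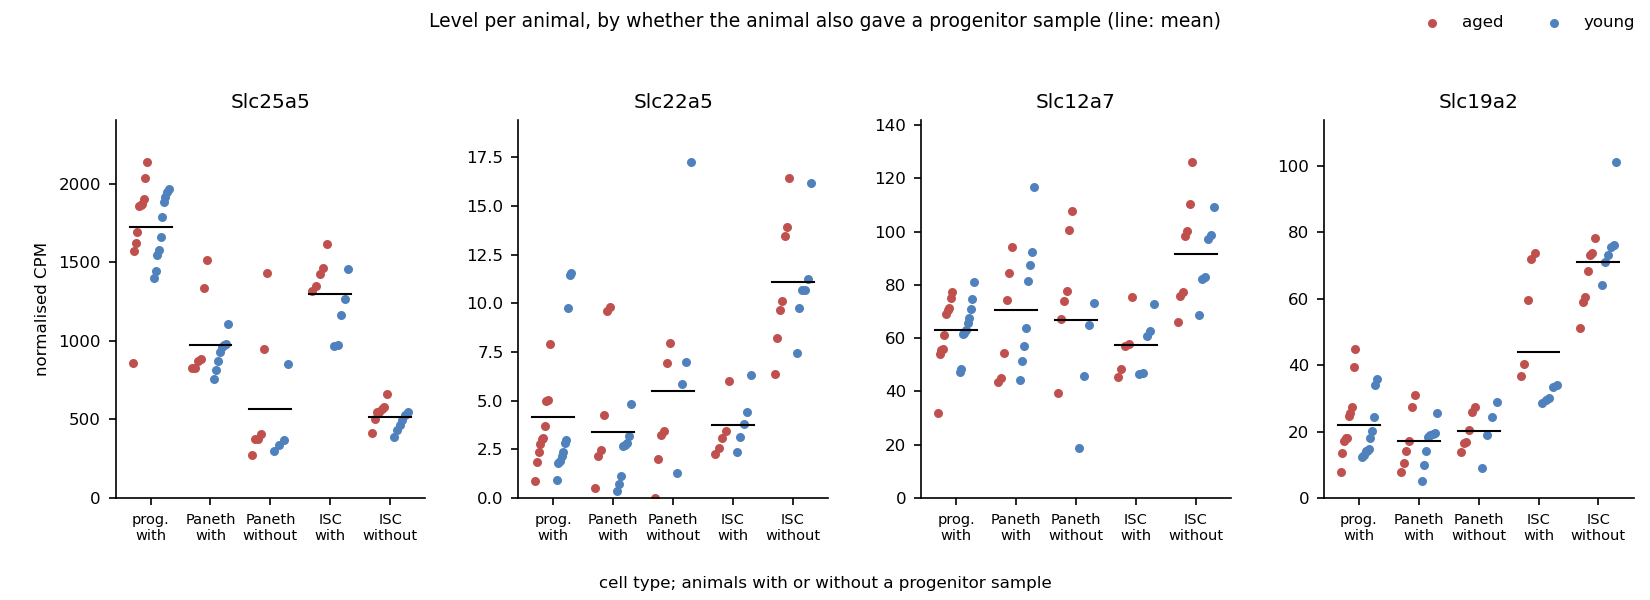
Normalised CPM of Slc25a5, Slc22a5, Slc12a7 and Slc19a2 per animal in each cell type, by whether the animal also gave a progenitor sample; lines are means. In ISCs the Slc25a5 values of the 10 animals with a progenitor sample (968 to 1615) lie above all 13 without (386 to 665).

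With a term for this split, edgeR's quasi-likelihood test called 609 of 11958 genes in ISCs (5.09%), among them, of 150 members tested, 6 beside Slc25a5, 2 higher and 4 lower in animals with a progenitor sample. With Slc25a5 the calls in ISCs took 7 of 150 members, a share close to that of all genes. The split was chosen from these data, so no p is given for these members either. Slc22a5, a carnitine carrier, was 2.28 to 6.29 CPM with and 6.35 to 16.4 CPM without a progenitor sample, a log2 change of -1.54 ± 0.28. Its ranges did not overlap either, and the share of all genes with ranges apart in this split was not worked out. Slc12a7, a potassium-chloride cotransporter, averaged 57.4 ± 11 with and 91.8 ± 18 without (log2 change -0.64, SE 0.12; SD, n = 10 and 13). Slc19a2, a thiamine carrier, averaged 43.9 ± 18 CPM with and 71.2 ± 12 CPM without (log2 change -0.74, SE 0.15). The other 3 called were Slc1a5, Slc6a20b and Slc25a35, with log2 changes of -0.34, 0.69 and 0.56. In Paneth cells 17 of 11663 genes were called (0.146%), and no member other than Slc25a5, whose log2 difference was 1.00 ± 0.19. Progenitor samples come by definition from the first set alone, so comparisons of cell types are given over all animals and within the animals with a progenitor sample.

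The largest differences between progenitors and ISCs were higher levels of Slc9a3, Slc17a9, Slc13a1 and Slc6a20a and lower levels of Slc1a2, Slc16a7, Slc25a27 and Slc16a11 in progenitors. In young mice 46 members were higher and 17 lower in progenitors, 63 of 154, against 22.7% of all 13287 genes tested (3021), and since the rule used these levels nothing is read from that count or from the counts by class below. With the animal as a block, in only the 23 animals sampled in more than 1 cell type, 52 members and 1599 genes were called. Within the animals with a progenitor sample, 54 members were called, 53 of them alike, and the sign held for all 63. The ranges of young animals were apart for 24 members (21 above and 3 below), against 6.55% of all genes. In aged mice 49 were higher and 18 lower, against 25.1% of all genes, and 57 were called the same way in both ages.

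**Figure D2:**
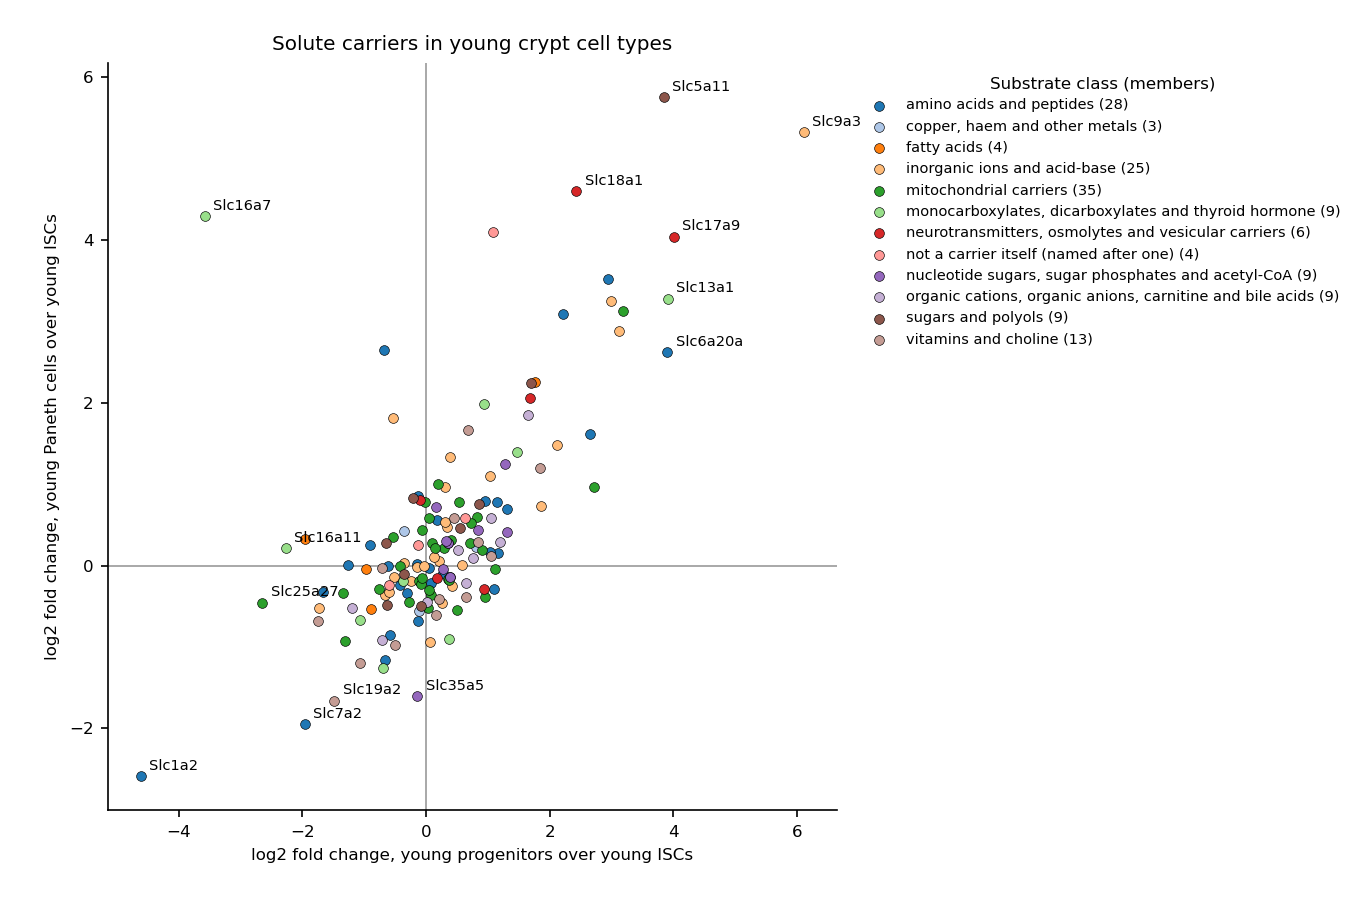
Log2 fold change of each of the 154 members in young progenitors over ISCs (x) and young Paneth cells over ISCs (y), coloured by substrate class. Slc9a3 lies far to the upper right (6.11 and 5.33), and Slc1a2 to the lower left (-4.61 and -2.59).

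Among carriers of amino acids and peptides 10 of 28 were higher and 4 lower in young progenitors than in young ISCs, with a class median log2 fold change of -0.04 against -0.03 over all genes. Slc6a20a, a proline and imino acid carrier, was 17.5, 42.8 and 55.0 normalised CPM (lowest, median, highest) in progenitors, against 0.13, 2.63 and 9.02 CPM in ISCs. The ranges did not overlap, and the log2 fold change was 3.90 ± 0.39. Slc7a9, the cystine and cationic amino acid carrier of the brush border, was 83.4, 134 and 156 CPM in progenitors, against 12.1, 21.0 and 39.0 CPM in ISCs, a log2 fold change of 2.64 ± 0.21 with no overlap. Its partner Slc3a1 had a log2 fold change of 1.31 ± 0.23. Slc43a2, which carries branched-chain amino acids, was 14.0, 24.8 and 44.9 CPM in progenitors, against 0.669, 3.20 and 8.25 CPM in ISCs. The glycine carrier Slc6a9 had a log2 fold change of 2.22, and the basolateral Slc7a8 and Slc7a7 had 1.17 and 1.15. Slc3a2, the heavy chain that several light chains need, averaged 168 ± 28 CPM in progenitors and 88.0 ± 15 CPM in ISCs (SD, n = 10 and 11). Slc1a1, the epithelial glutamate carrier, had a log2 fold change of 1.10.

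Going the other way, Slc1a2, a glutamate carrier best known in astrocytes, was 0, 0.118 and 2.57 CPM in progenitors, against 4.76, 9.76 and 21.6 CPM in ISCs. All young ISC samples lay above all young progenitor samples (log2 fold change -4.61 ± 0.95). Slc1a5, which exchanges glutamine and other neutral amino acids, averaged 150 ± 27 CPM in progenitors and 280.3 ± 60 CPM in ISCs. Slc7a2, a cationic amino acid carrier, averaged 2.35 ± 1.8 CPM in progenitors and 9.16 ± 3.7 CPM in ISCs, and the proline carrier Slc6a7 was also lower. Slc38a2, a sodium-coupled neutral amino acid carrier, averaged 75.1 ± 13 CPM in progenitors and 82.9 ± 12 CPM in ISCs and was not called. Slc7a1, a cationic amino acid carrier, averaged 80.7 ± 7.6 CPM in progenitors and 67.3 ± 12 CPM in ISCs and was not called. Members named here and below that are neither among the largest folds nor the most counted of their class were chosen after their values were seen.

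Of 25 ion carriers 6 were higher and 1 lower in progenitors (22.7% of all genes were called either way), with a class median log2 fold change of 0.25. Slc9a3, the apical sodium-proton exchanger of enterocytes, was 3.62, 15.2 and 20.1 CPM in progenitors, against 0, 0 and 0.70 CPM in ISCs, with no overlap. Over the 11 young ISC animals 12 reads were counted, and the pooled ratio was 80.2 (95% interval 45.7 to 156, counting error only). Slc26a6, an anion exchanger of the apical membrane, was 34.6, 59.2 and 85.3 CPM in progenitors, against 1.28, 7.28 and 10.5 CPM in ISCs. Slc26a3, the chloride-bicarbonate exchanger, and Slc26a2, a sulfate carrier, had log2 fold changes of 1.86 ± 0.27 and 1.03 ± 0.24. Slc12a8 averaged 139 ± 34 CPM in progenitors and 32.0 ± 6.2 CPM in ISCs, and the magnesium carrier Slc41a2 had a log2 fold change of 2.99 ± 0.56. The potassium-chloride cotransporter Slc12a7 averaged 64.3 ± 11 CPM in progenitors and 75.3 ± 21 CPM in ISCs. Within the animals with a progenitor sample, over both ages, Slc12a7 averaged 63.2 ± 12 CPM in progenitors and 57.4 ± 11 CPM in ISCs. The organellar sodium-proton exchanger Slc9a8 averaged 50.4 ± 13 CPM in progenitors and 55.3 ± 12 CPM in ISCs. Slc4a2, an anion exchanger and the most counted of the class, averaged 110 ± 12 CPM in progenitors and 86.9 ± 20 CPM in ISCs. These 3 were not called, and Slc9a5 was the 1 lower.

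Of 9 monocarboxylate and related carriers 2 were higher and 3 lower in progenitors. Slc13a1, a sodium-sulfate cotransporter of gut and kidney, was 10.5, 18.4 and 36.1 CPM in progenitors, against 0, 1.42 and 3.20 CPM in ISCs, with no overlap (log2 fold change 3.91 ± 0.53). Slc16a11 was 1.75, 3.41 and 8.01 CPM in progenitors, against 6.54, 13.8 and 36.7 CPM in ISCs, so the ranges overlapped at their ends. Slc16a7 had 3 reads in the 10 young progenitor samples, a pooled ratio to ISCs of 0.0619 (95% interval 0.0124 to 0.190, counting error only), and Slc16a13 was lower too. Slc16a5 had a log2 fold change of 1.48. Slc16a1, a proton-linked lactate carrier, averaged 50.2 ± 14 CPM in progenitors and 38.8 ± 11 CPM in ISCs and was not called, nor was Slc16a10, at 23.6 ± 5.7 CPM in progenitors and 31.0 ± 6.2 CPM in ISCs.

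Of 6 neurotransmitter and osmolyte carriers 4 were higher in progenitors. Slc17a9, the vesicular nucleotide carrier, was 3.54, 9.38 and 13.3 CPM in progenitors, against 0, 0.60 and 5.68 CPM in ISCs. Slc18a1, the vesicular monoamine carrier of enterochromaffin cells, was 2.25, 4.03 and 8.50 CPM in progenitors, against 0, 0.432 and 2.14 CPM in ISCs. Its log2 fold change was 2.43 ± 0.60 over all animals and 5.12 ± 1.01 within the animals with a progenitor sample. The serotonin carrier Slc6a4 and the creatine carrier Slc6a8 had log2 fold changes of 0.94 and 1.69. The taurine carrier Slc6a6 averaged 48.0 ± 8.0 CPM in progenitors and 42.7 ± 9.3 CPM in ISCs and was not called. The summed enteroendocrine markers had a median of 225 CPM in young progenitors and 6.92 CPM in young ISCs, and the summed enterocyte markers 730 CPM in young progenitors and 105 CPM in young ISCs. The summed goblet markers had a median of 19993 CPM in young progenitors and 647 CPM in young ISCs. The part of these cells in the differences between progenitors and ISCs was not tested.

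Of 35 mitochondrial carriers 9 were higher and 4 lower in progenitors, with a class median log2 fold change of 0.14. Slc25a3, the phosphate carrier and the most counted member, averaged 1581 ± 123 CPM in progenitors and 1239 ± 122 CPM in ISCs (log2 fold change 0.36 ± 0.07). Slc25a11, the oxoglutarate and malate carrier, averaged 194 ± 28 CPM in progenitors and 119 ± 19 CPM in ISCs, and its log2 fold change was 0.71. Slc25a39, a mitochondrial glutathione carrier, averaged 332 ± 38 CPM in progenitors and 311 ± 34 CPM in ISCs and was not called. Slc25a24, an ATP-Mg/phosphate carrier, was 35.4, 49.2 and 67.4 CPM in progenitors, against 1.83, 7.70 and 17.3 CPM in ISCs, with no overlap. Slc25a45 had a log2 fold change of 3.18 ± 0.36. Slc25a27 was 0.138, 0.829 and 2.57 CPM in progenitors, against 3.60, 5.84 and 8.84 CPM in ISCs, again with no overlap. Slc25a4, another ADP/ATP carrier, had a log2 fold change of -1.32 ± 0.30, while that of Slc25a5 was 1.12 ± 0.28 over all animals and 0.55 ± 0.13 within the animals with a progenitor sample.

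Fatty acid carriers went both ways. Slc27a4, which like its family imports and activates long-chain fatty acids, averaged 53.1 ± 11 CPM in progenitors and 15.7 ± 4.9 CPM in ISCs, while Slc27a2 averaged 46.6 ± 17 CPM in progenitors and 86.2 ± 18 CPM in ISCs. Slc27a1 had a log2 fold change of -1.95 ± 0.50, and Slc27a3, at 2.36 ± 1.5 CPM in progenitors and 4.66 ± 4.1 CPM in ISCs, was not called. The copper uptake carrier Slc31a1 had a log2 fold change of 0.81, while the haem carrier Slc48a1 and Slc31a2 were not called.

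Of the 9 nucleotide sugar and sugar phosphate carriers that the rule kept, none was lower and 3 were higher. They were Slc35a2 for UDP-galactose (log2 fold change 1.302 ± 0.23), Slc33a1 for acetyl-CoA (1.28 ± 0.27) and Slc35a3 for UDP-N-acetylglucosamine (0.84 ± 0.23). Slc37a1, Slc37a4 and Slc35a4 averaged 92.4, 62.7 and 99.03 CPM in progenitors and 82.5, 48.0 and 82.2 CPM in ISCs and were not called. Among organic cation and anion carriers Slc22a18 and Slc22a23 were higher, with log2 fold changes of 1.65 and 0.75, and Slc10a3 averaged 20.9 ± 5.1 CPM in progenitors and 20.5 ± 5.9 CPM in ISCs.

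Of 9 sugar carriers Slc50a1, the fructose carrier Slc2a5 and the myo-inositol carrier Slc5a11 were higher, with log2 fold changes of 0.85, 1.69 and 3.84, and Slc2a8 and Slc5a9 were not called. Of 13 vitamin and choline carriers Slc52a3 for riboflavin and the choline carrier-like Slc44a1 and Slc44a4 were higher. Slc23a3, the folate carrier Slc19a1 and the thiamine carrier Slc19a2 were lower, with log2 fold changes of -1.74, -0.71 and -1.48. For Slc19a2 it was -0.63 ± 0.30 within the animals with a progenitor sample, not past the threshold. Among the proteins named after a carrier, the adaptor Slc9a3r1 had a log2 fold change of 0.63, and Slc7a6os and Slc4a1ap were not called.

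**Figure D3:**
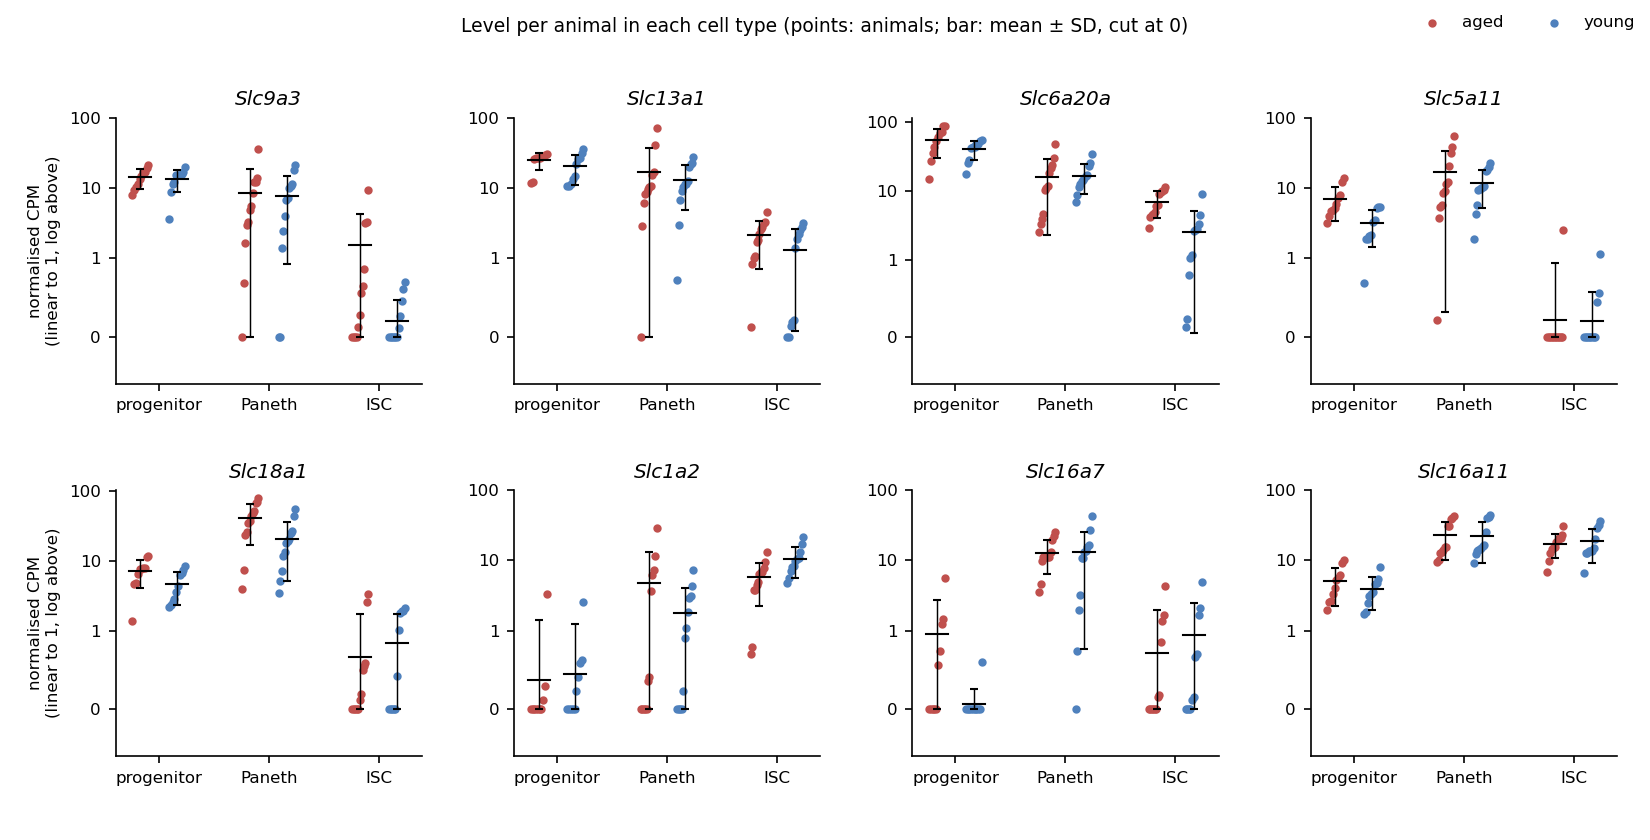
Normalised CPM per animal of 8 members in progenitors, Paneth cells and ISCs, aged beside young; bars are mean ± SD cut at 0, the axis is linear up to 1 and logarithmic above. Slc9a3 was at most 0.70 CPM in young ISCs and at least 3.62 in young progenitors, and Slc1a2 ran the other way.

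The largest differences between Paneth cells and ISCs were higher levels of Slc5a11, Slc9a3, Slc18a1 and Slc16a7 and lower levels of Slc1a2, Slc7a2, Slc19a2 and Slc35a5 in Paneth cells. In young mice 44 members were higher and 12 lower, 56 of 154, against 29.2% of all genes. In aged mice 61 were called, against 30.1% of all genes. Within the animals with a progenitor sample 41 were called, 38 of them alike, and all 56 signs were kept. Without composition scaling the median of all genes moves by -1.85 on the log2 scale in this comparison and by -1.70 against progenitors, so directions are relative to the median gene. Ranges were apart for 9 members, all above, against 2.91% of all genes.

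Slc5a11 was 1.90, 10.1 and 22.7 CPM in Paneth cells, against 0, 0 and 1.16 CPM in ISCs, with no overlap (log2 fold change 5.76 ± 0.73, pooled ratio 53.4, 95% interval 32.5 to 94.2, counting error only). Slc18a1 was 3.54, 18.9 and 56.4 CPM in Paneth cells, against 0, 0.432 and 2.14 CPM in ISCs, and Slc9a3 0, 6.96 and 21.0 CPM in Paneth cells, against 0, 0 and 0.70 CPM in ISCs. Slc18a1 did not overlap, while 2 Paneth samples had no Slc9a3 read. The summed enteroendocrine markers had a median of 1359 CPM in young Paneth cells and 6.92 CPM in young ISCs, and the summed enterocyte markers 1480 CPM in young Paneth cells and 105 CPM in young ISCs. The summed goblet markers had a median of 6027 CPM in young Paneth cells and 647 CPM in young ISCs, and the summed tuft markers 539 CPM in young Paneth cells and 3.72 CPM in young ISCs. The part of these cells in the differences between Paneth cells and ISCs was not tested.

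Ion carriers were higher in 10 of 25 and lower in none, where 29.2% of all genes were called either way. Slc41a1, a magnesium carrier, averaged 38.7 ± 18 CPM in Paneth cells and 11.1 ± 5.9 CPM in ISCs. Slc16a7, a monocarboxylate carrier, was 0, 12.1 and 42.7 CPM in Paneth cells, against 0, 0.15 and 4.97 CPM in ISCs. It was not called within the animals with a progenitor sample (log2 fold change 2.84 ± 1.08). Slc1a4, a neutral amino acid carrier, averaged 55.3 ± 24 CPM in Paneth cells and 8.78 ± 5.5 CPM in ISCs. Slc7a2 averaged 2.35 ± 2.3 CPM in Paneth cells and 9.16 ± 3.7 CPM in ISCs, and Slc35a5 2.00 ± 2.0 CPM in Paneth cells and 6.04 ± 4.1 CPM in ISCs. Vitamin carriers were lower in 5 of 13 (Slc19a2, Slc23a4, Slc44a1, Slc44a2 and Slc5a6) and higher in 2 (Slc46a1, the proton-coupled folate carrier, and Slc52a3). Slc1a2 was 0, 1.01 and 7.22 CPM in Paneth cells, against 4.76, 9.76 and 21.6 CPM in ISCs, and was not called within the animals with a progenitor sample (log2 fold change -2.29 ± 1.04).

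Calls between Paneth cells and progenitors went both ways, among members and among all genes (1875 higher and 1599 lower in young Paneth cells). Since the rule used these levels, nothing is read from the members' counts. In young mice 23 members were higher and 24 lower in Paneth cells, against 26.1% of all genes (47 in aged mice, against 24.8%), and 47 were called within animals with a progenitor sample, 38 of them alike. Ranges were apart for 3 above and 3 below, against 2.79% of all genes. Slc16a7 had 498 reads in Paneth samples and 3 in progenitor samples, a pooled ratio of 275 (95% interval 93.6 to 1339, counting error only). That interval leaves out the spread between young Paneth animals, 0 to 42.7 CPM, and the level rule used these values. Slc1a4 was 26.2, 49.7 and 96.3 CPM in Paneth cells, against 2.34, 4.65 and 15.4 CPM in progenitors, with no overlap (log2 fold change 3.33 ± 0.39). The adaptor Slc9a3r2 and Slc16a11 had log2 fold changes of 3.02 ± 0.62 and 2.48 ± 0.34. Slc25a24, Slc35a5, Slc1a1 and Slc25a20, the carnitine-acylcarnitine carrier, had the lowest log2 fold changes, at -1.75, -1.46, -1.40 and -1.34. Slc1a5 averaged 336 ± 104 CPM in Paneth cells and 150 ± 27 CPM in progenitors.

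No member passed the age test in any cell type. The test compares aged with young mice, and age was no part of the rule, though the members were chosen with earlier results of these data known. edgeR called 0 of 151 members in progenitors (0.728% of all 11812 genes were called), 0 of 154 in Paneth cells (0.0686% of 11663) and 0 of 150 in ISCs (0.351% of 11958). At an unadjusted p below 0.05 there were 17, 13 and 13 members, 11.3%, 8.44% and 8.67%, against 9.06%, 6.83% and 8.90% of all genes. Median log2 changes of the members were 0.04, 0.04 and 0.03, against 0.0043, 0.0081 and -0.0022 over all genes. DESeq2 called Slc22a18 and Slc16a12 in progenitors (DESeq2 adjusted p = 0.0292 and 0.0175), Slc25a44 in Paneth cells (DESeq2 adjusted p = 0.0280) and Slc1a1 in ISCs (DESeq2 adjusted p = 0.0369). The 95% intervals lay within a doubling either way for 125, 66 and 119 members, and reached beyond it for the rest. Without composition scaling the median of all genes moves to 0.24 in Paneth cells, so changes there are relative to the median gene. By class, the medians lay between -0.05 (amino acids) and 0.29 (neurotransmitters and osmolytes) in progenitors, between -0.10 (fatty acids) and 0.48 (copper and haem) in Paneth cells and between -0.14 (inorganic ions) and 0.19 (organic cations and anions) in ISCs. Enteroendocrine marker sums had medians of 503 CPM in aged and 225 in young progenitors, and 1 of the 8 markers was called higher. Fitted log2 changes were above 0 for 10 of 10 enterocyte markers in aged progenitors (median 0.43) and, in aged Paneth cells, for 6 of 6 Paneth and 7 of 7 goblet markers (medians 0.31 and 0.24), none of them called. Other lists went the other way: 1 of 6 ISC markers was above 0 in progenitors (median -0.24) and 0 of 5 tuft markers in Paneth cells (median -0.35). Of all genes, 50.9% were above 0 in progenitors and 50.8% in Paneth cells. The part of these markers in the members' values was not tested. No member's aged and young ranges were apart (0.0677%, 0.00857% and 0.0585% of all genes).

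**Figure D4:**
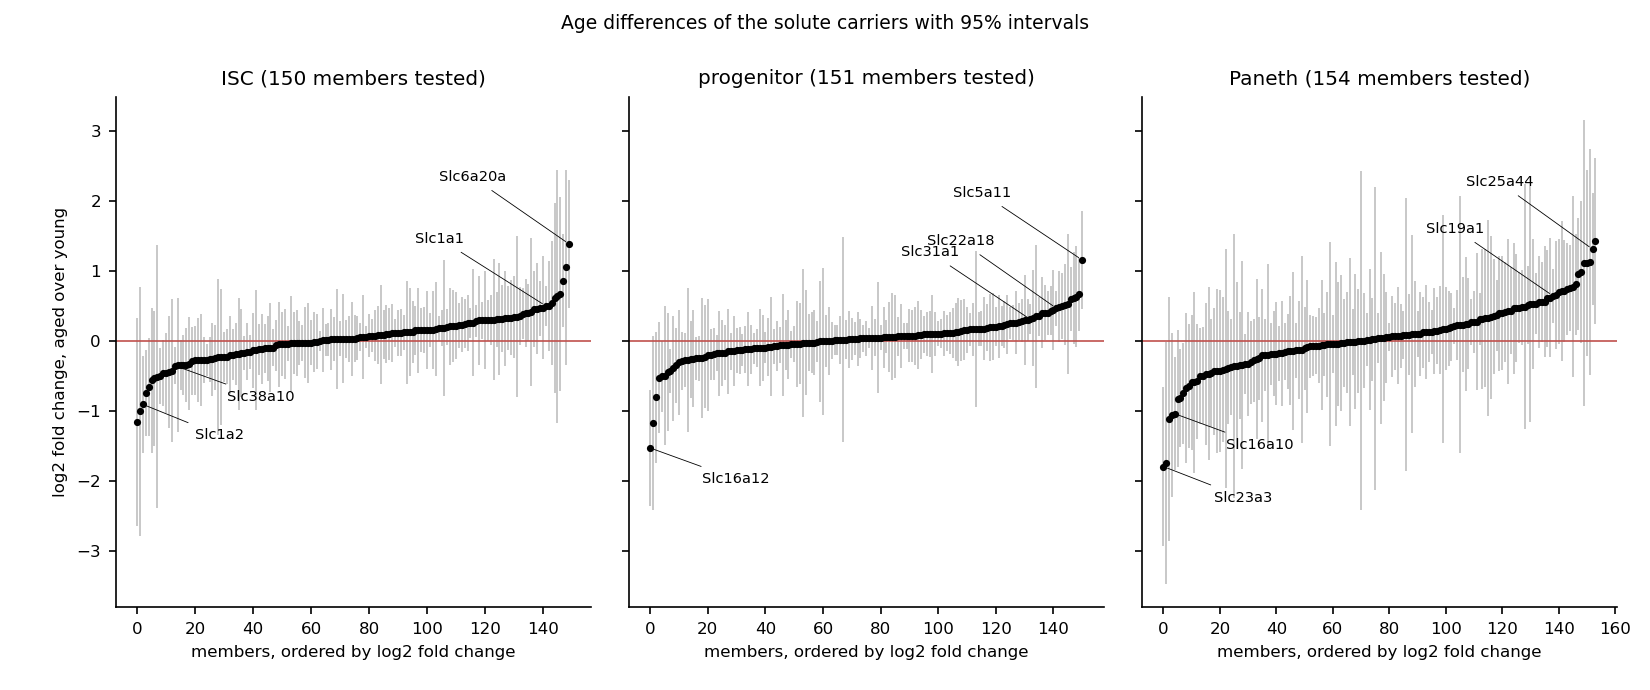
Log2 fold change of aged over young for each member with its 95% interval, ordered by size, in ISCs, progenitors and Paneth cells; the 12 members with the smallest p are labelled. None is called, and 125 of 151 progenitor, 66 of 154 Paneth and 119 of 150 ISC intervals lie within 1 of 0.

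In progenitors Slc22a18, an organic cation carrier, was 41.9, 65.9 and 76.3 CPM in aged and 33.4, 47.9 and 61.7 CPM in young mice, with 9 of 10 aged animals above the young median. Its log2 fold change was 0.46 ± 0.12 (edgeR adjusted p = 0.0653, and 0.0267 to 0.147 over the alternatives). It passed without young male 2, aged male 2 or aged female 3 (edgeR adjusted p = 0.0466, 0.0267 and 0.0363). Slc16a12, a creatine carrier, was 0.142, 1.91 and 3.17 CPM in aged and 2.73, 4.12 and 9.68 CPM in young mice (log2 fold change -1.53 ± 0.41, edgeR adjusted p = 0.0701). All 10 aged animals were below the young median, and the ranges overlapped slightly. Slc5a11 was 3.15, 5.61 and 13.7 CPM in aged and 0.687, 2.696 and 5.43 CPM in young mice (log2 fold change 1.15 ± 0.35, edgeR adjusted p = 0.150; without young male 1, 1.41 with edgeR adjusted p = 0.0463). Slc31a1 was 86.3, 120 and 175 CPM in aged and 80.9, 101 and 119 CPM in young mice (log2 fold change 0.30 ± 0.11, edgeR adjusted p = 0.265).

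In Paneth cells Slc25a44, a mitochondrial branched-chain amino acid carrier, was 6.97, 16.5 and 36.0 CPM in aged and 1.52, 6.66 and 12.8 CPM in young mice, with all 12 aged animals above the young median (log2 fold change 1.31 ± 0.40, edgeR adjusted p = 0.316). Slc19a1, the reduced folate carrier, was 73.2, 125 and 222 CPM in aged and 42.5, 77.2 and 151 CPM in young mice (log2 fold change 0.64 ± 0.19, edgeR adjusted p = 0.279). Its log2 fold change was 0.25 ± 0.11 in progenitors and 0.25 ± 0.10 in ISCs, also not called. Slc23a3 averaged 3.56 ± 2.2 CPM in aged and 12.4 ± 10 CPM in young mice (log2 fold change -1.80 ± 0.56, edgeR adjusted p = 0.336). Slc16a10, a thyroid hormone and aromatic amino acid carrier, averaged 15.4 ± 11 CPM in aged and 27.4 ± 21 CPM in young mice (log2 fold change -1.04 ± 0.40, edgeR adjusted p = 0.502).

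In ISCs Slc1a1 was 30.4, 37.1 and 51.2 CPM in aged and 16.0, 28.0 and 35.5 CPM in young mice, with all 12 aged animals above the young median (log2 fold change 0.50 ± 0.14, edgeR adjusted p = 0.152). Slc6a20a was 2.95, 6.17 and 11.6 CPM in aged and 0.13, 2.63 and 9.02 CPM in young mice (log2 fold change 1.38 ± 0.45, edgeR adjusted p = 0.263). Without young male 2 it was 2.03 (edgeR adjusted p = 0.0283). Slc38a10, a carrier of the amino acid family, averaged 36.9 ± 9.6 CPM in aged and 47.0 ± 6.2 CPM in young mice (log2 fold change -0.35 ± 0.13, edgeR adjusted p = 0.371). Slc1a2 averaged 5.75 ± 3.5 CPM in aged and 10.6 ± 5.0 CPM in young mice (log2 fold change -0.91 ± 0.34, edgeR adjusted p = 0.372). With a term for the progenitor sample, within the animals that gave one and within those that did not, the test called 0 members in ISCs and in Paneth cells.

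**Figure D5:**
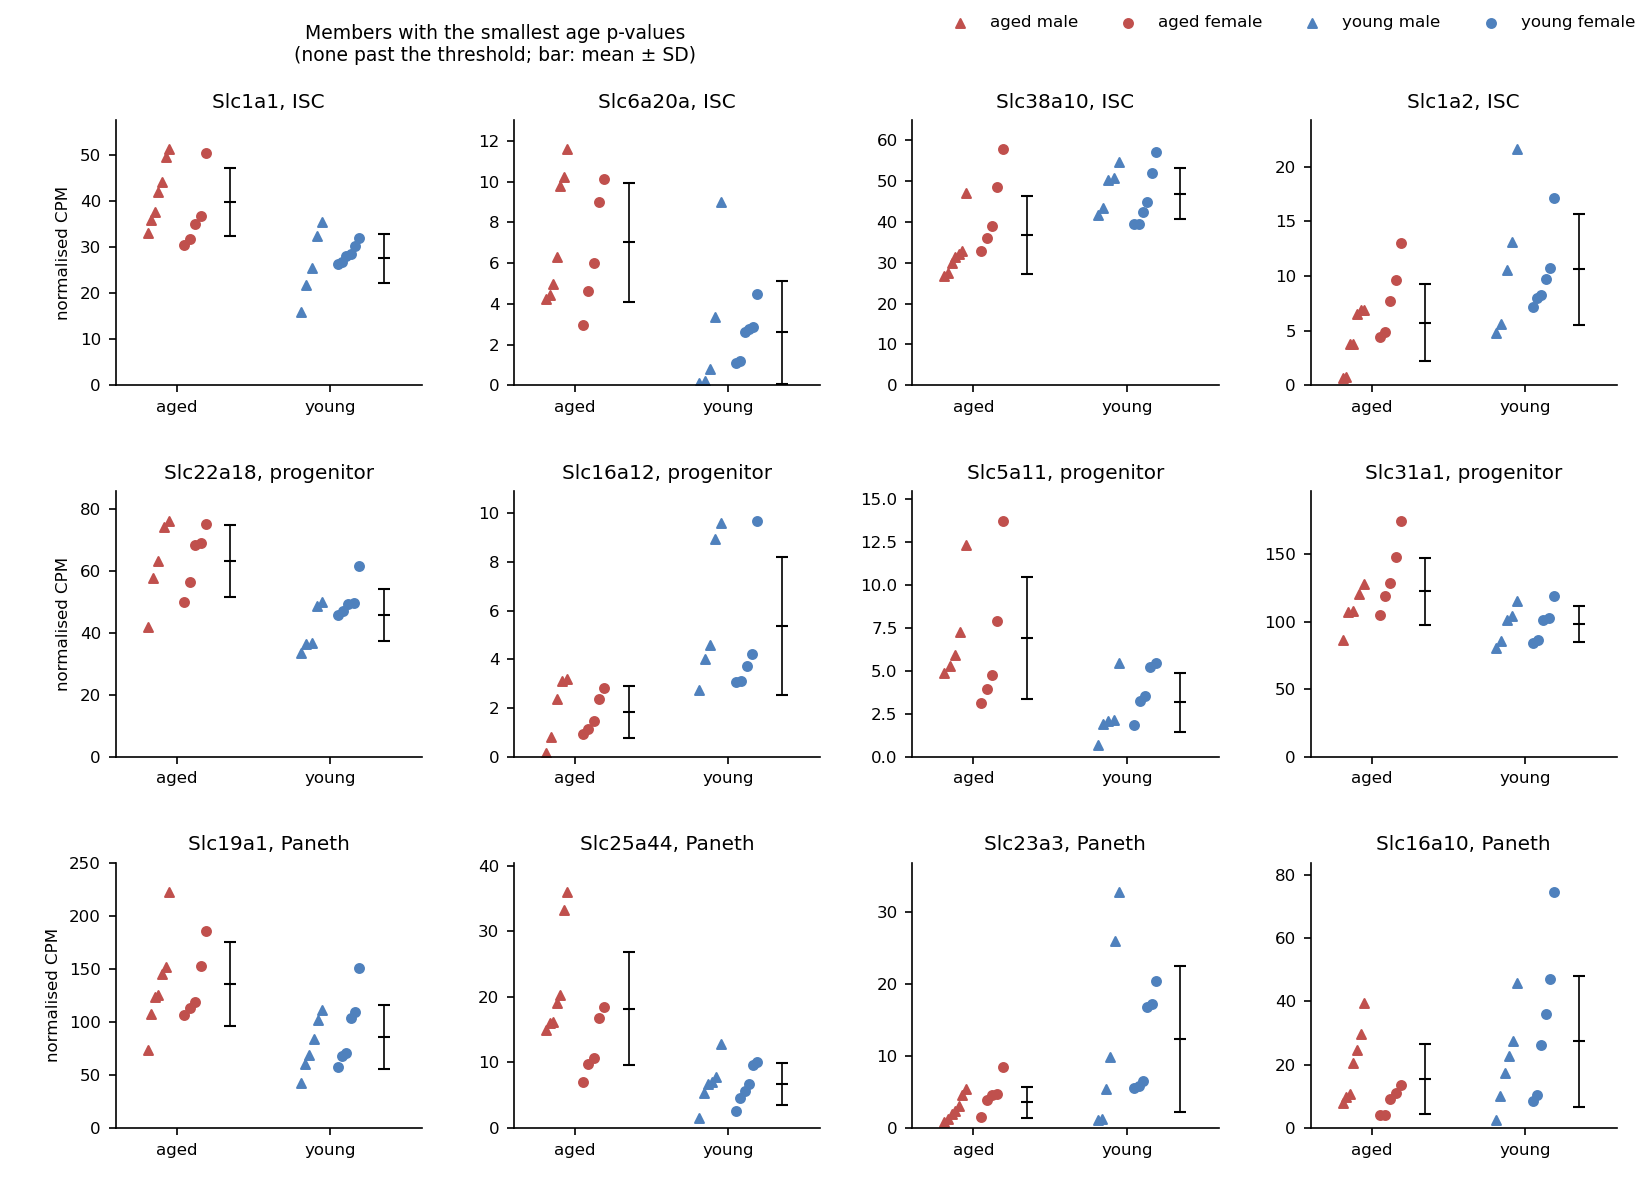
Normalised CPM per animal of the 12 members with the smallest age p, aged left of young, triangles male and circles female, with mean ± SD. The aged and young ranges overlap in each panel, as for Slc1a1 in ISCs (30.4 to 51.2 and 16.0 to 35.5).

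No member passed the test of age by sex or of sex either (edgeR, male difference minus female difference; male minus female). Aged males were up to 27 months old in each cell type and aged females at most 24. Sex and months can therefore not be fully told apart among aged mice, in either test. Age by sex had 7, 10 and 22 members at an unadjusted p below 0.05 in progenitors, Paneth cells and ISCs, against 6.19%, 5.32% and 7.01% of all genes, and 0 of all genes were called. Among ISC members 14.7% were below that p. In ISCs Slc25a1, the citrate carrier, averaged 86.5 ± 13 CPM in aged males, 113.5 ± 18 in aged females, 114.3 ± 8.9 in young males and 81.5 ± 26 in young females (-0.87 ± 0.23, edgeR adjusted p = 0.413). For sex, edgeR called 0 members, against 0.135%, 0.0257% and 0.0836% of all genes, with 11, 9 and 10 members at an unadjusted p below 0.05 (7.92%, 4.63% and 7.33% of all genes). In progenitors Slc3a2 averaged 140 ± 12 in aged males and 189 ± 32 in aged females, and 153 ± 18 in young males and 184 ± 29 in young females (-0.36 ± 0.09, edgeR adjusted p = 0.190). In ISCs Slc16a7 averaged 0.0484 ± 0.083 CPM in aged males and 1.64 ± 1.6 CPM in aged females, and 0.298 ± 0.36 CPM in young males and 1.48 ± 1.9 CPM in young females (log2 difference -3.56 ± 0.95, edgeR adjusted p = 0.229).

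No member's age effect differed between cell types in the fit of all animals (edgeR; 0.00753% of genes called for progenitors minus ISCs, 0.0376% for Paneth cells minus ISCs and 0% for Paneth cells minus progenitors). The smallest p was that of Slc6a20a, Paneth cells minus ISCs: -1.82 ± 0.50 (edgeR adjusted p = 0.151). With the animal as a block, in the 23 animals sampled in more than 1 cell type, the difference was -3.37 ± 0.54 (edgeR adjusted p = 0.00113). That set lacks the animal that gave ISC young male 2. Without this animal alone, and with no block, the difference was -2.51 (edgeR adjusted p = 0.0186). The 2 alternatives are therefore not independent, and the block and the smaller set cannot be told apart. For Slc16a7, progenitors minus ISCs gave 4.91 ± 1.34 (edgeR adjusted p = 0.745), at 0.964 ± 1.7 CPM in aged and 0.0604 ± 0.19 in young progenitors. Slc6a20a averaged 15.6 ± 13 CPM in aged and 16.6 ± 7.6 CPM in young Paneth cells, and 7.03 ± 2.9 CPM in aged and 2.60 ± 2.5 CPM in young ISCs.

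Genes that work with these carriers were compared likewise. Of 34 partners, pumps and channels (among them accessory subunits, ATPases, aquaporins and Slco genes), 0 of 28, 29 and 29 tested were called for age in progenitors, Paneth cells and ISCs (0.728%, 0.0686% and 0.351% of all genes). Aqp11 had the smallest p in progenitors (0.35, edgeR adjusted p = 0.427) and in ISCs (0.37, edgeR adjusted p = 0.382), Mpc2 and Atp1b1 followed there, and Aqp4 and Bsg led in Paneth cells (0.63 and 0.20). Of 22 genes of the amino acid response through ATF4, 1 of 19 was called in progenitors (0.728% of all genes) and 0 of 19 and 0 of 18 in Paneth cells and ISCs. It was Phgdh, the first enzyme of serine synthesis, at 6.78, 15.9 and 22.8 CPM in aged and 19.3, 29.5 and 39.9 in young progenitors, -0.83 ± 0.18 (edgeR adjusted p = 0.0129), with the ranges overlapping. Psat1 and Psph in Paneth cells and Pycr1 and Stbd1 in ISCs were smallest in p and not called.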

How the data were processed

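The authors deposited raw counts of reads per gene for each library, from 3′-end sequencing (SC3-seq). Per the submitters' processing notes, cutadapt 3.0, STAR 2.7.9a, HTSeq 0.13.5, DESeq2 1.30.1 and build mm10 were named, with no role or order given. Counts of 112 libraries were used, with the 2 to 3 technical Paneth libraries of an animal summed (69 libraries). The 36 animal names were taken from the samples' descriptions and column names, and 127 genes listed without a symbol stay in the totals. Replicates carry separate animal names. Among the Paneth names, 1 differs from another name only by an added suffix, may be the same animal and was kept apart. The animal block used only the 23 names sampled in more than 1 cell type, so it left that Paneth name out. The p-values measure the spread between these samples.

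Levels are normalised CPM (trimmed mean of M values, TMM). Tests were edgeR 4.0.16 quasi-likelihood fits (limma 3.58.1, R 4.3.3) of 4 age and sex groups within each cell type, and of all animals for comparisons between cell types, with genes of low counts filtered at a minimum count of 10 and adjusted p by Benjamini-Hochberg over all genes tested. DESeq2 1.42.0 and limma-voom were alternatives. The code was tested on simulated data. Intervals of pooled counts cover counting error only. They leave out the spread between animals and the choice of members by level, so they are a description. RefSeq start regions matched 112 members.

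The members, classes and lists were chosen with earlier results of these data known. Named members were those called in a test of age or sex, the 4 with the smallest p per age effect and the 4 most counted per class. Added to these were the 4 with the largest cell type differences in each direction, and the 3 nearest the level limit on each side. Many further members, a good part of them called between cell types, were named after their values were seen. One member that this rule names is not reported here. The split by progenitor sample was chosen after seeing the data. Samples with the same replicate number deviated together with a median correlation of -0.00888, 0.0122 and 0.0288 in progenitors, Paneth cells and ISCs. The numbers were not used as pairs in the main fits. Across cell types, animals pair by origin (median correlation 0.0623 to 0.0859).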

Additional observations from a re-analysis of the deposited data

Results flagged for a closer look

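Of 126 groups of animals checked, 17 held an animal far from the others of its group by Dixon's test. Groups held 5 to 7 animals, and where the others are at 0, as for Slc16a7 in young male progenitors, a few reads give a flag. The number flagged is therefore not compared with a chance rate. The flagged animals are listed as normalised CPM with the nearest other animal after each.
Slc16a11 was 40.5 in Paneth young male 2 (16.5) and 8.01 in progenitor young female 2 (3.52). Slc16a12 was 9.68 in progenitor young female 3 (4.21). Slc16a7 was 42.7 in Paneth young female 1 (16.4) and 0.604 in progenitor young male 1 (0). Slc17a9 was 5.68 in ISC young female 1 (1.94). Slc1a2 was 17.2 in ISC young female 1 (10.8), 7.22 in Paneth young female 3 (1.87) and 2.57 in progenitor young female 1 (0.236). Slc22a18 was 61.7 in progenitor young female 4 (49.6). Slc25a20 was 25.1 in Paneth young male 2 (12.7) and 91.8 in progenitor young male 3 (42.0). Slc38a10 was 47.1 in ISC aged male 5 (33.0). Slc5a11 was 0.554 in ISC young female 1 (0). Slc7a2 was 17.3 in ISC young female 4 (10.1). Slc9a3 was 0.700 in ISC young male 4 (0.116). Slc9a3r2 was 61.5 in Paneth young female 2 (20.2).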

How the results depend on the processing

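Of 3576 alternative values, 3503 stayed the same, 63 moved and 10 became stronger. The same meant on the same side of the threshold, within the spread, or, for counts, within a set ratio of the main count. Only fold changes of the members with the smallest age p or the largest cell type differences could be labelled reversed, and none was. Counts and class medians could only stay or move, so a change of sign in a class median was not marked. For age, the number of members called moved from 0 to 1 with DESeq2 in ISCs and in Paneth cells, to 2 with DESeq2 and 1 without the low-count filter in progenitors, and ranged from 0 to 1 when 1 animal was left out in ISCs and in progenitors. Without 1 animal, Slc6a20a in ISCs passed without young male 2, Slc5a11 in progenitors without young male 1, and Slc22a18 in progenitors without young male 2, aged male 2 or aged female 3. Age by sex in ISCs moved to 1 member with the replicate number as a block (Slc25a1, edgeR adjusted p = 0.0490). It also moved to 1 within the animals with a progenitor sample alone (Slc15a2, edgeR adjusted p = 0.00284). The Slc15a2 log2 difference there was 12.7 ± 1.9, from groups of 2 to 3 animals. In the main fit the members ran from -2.30 to 2.17, so this value is not read further. The age difference of Paneth cells and ISCs moved to 1 with the animal as a block, and ranged from 0 to 1 when animals were left out. Neither block changed any other age or sex call of a member; with the animal block 52, 50 and 38 members were called for progenitors over ISCs, Paneth cells over ISCs and Paneth cells over progenitors. Cell type counts ranged over left-out animals from 60 to 65 (progenitors and ISCs), 53 to 62 (Paneth cells and ISCs) and 41 to 48 (Paneth cells and progenitors), and unscaled totals gave 141 and 135 in both Paneth comparisons, with medians of all genes moved by -1.85 and -1.70, and by 0.24 for age in Paneth cells. The count of all genes called for age was 86 in progenitors, 8 in Paneth cells and 42 in ISCs, and 128, 36 and 104 with DESeq2; in Paneth cells it was 22 without scaling and 2 without the animals of 26 and 27 months. The animal block kept only the 23 animal names sampled in more than 1 cell type. With it, all genes called between progenitors and ISCs were 1599, against 3021 over all animals without a block. The block and the smaller set of samples cannot be told apart in this drop. The causes were not tested. Depth limits what can be said of members with few reads, such as Slc16a7 in young progenitors (3 reads).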
